A study of Mus musculus with 12 samples.

Results

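Map7, Gm26740, Gm26581, Hmgb1-ps8 and Gm5421 are 5 transcripts of mouse chromosome 10 that had higher read counts in Zbtb24 conditional knockout (CKO) libraries than in control libraries. They were chosen from these measured values, as genes between 20.15 and 22.35 Mb of chromosome 10 that were higher in CKO, out of 46078 genes in the count file. The CKO against control values are therefore given as a description, without a test. Tests are given for the members only between marginal zone (MZ) and follicular (FO) B cells and for the difference between both genotype effects. Genes of the same region that are not members are tested by genotype.

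The study sequenced RNA of FO and MZ B cells from the spleens of C57BL/6 mice aged 8 to 12 weeks, with no treatment named in the labels. All mice carried VAVcre, a Cre recombinase driven by the Vav promoter, which is active in blood-forming cells. Control mice had VAVcre alone and are labelled WT, whereas CKO mice also had the conditional Zbtb24 allele and are labelled Zbtb24-/-. There were 3 libraries in each of the 4 groups (Control and CKO, each as FO and as MZ). They carry 6 mouse numbers, each seen once among FO and once among MZ libraries, so the FO and MZ values of a genotype appear to come from the same 3 mice and are not independent. Zbtb24 lies on chromosome 10 too, and every CKO library carries the conditional allele while no control library does. An effect of losing ZBTB24 and a difference in inherited chromosome 10 sequence around that allele cannot be told apart in this design. Cre acts in all blood lineages here, so an effect within the B cell and one that reaches it through other blood cells cannot be told apart either.

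ZBTB24 is a zinc finger and BTB domain protein that binds DNA, and its loss in humans causes ICF syndrome, with antibody deficiency, unstable centromeres and DNA hypomethylation. MAP7 binds microtubules and recruits kinesin-1, the motor that carries cargo along them. Gm26740 is annotated as an antisense RNA and Gm26581 as a long intergenic non-coding RNA. Hmgb1-ps8 and Gm5421 are processed pseudogenes, that is, copies of a spliced messenger RNA set back into the genome, and such copies usually have no promoter of their own. The last 4 lie in the Raet1 and H60 gene cluster, whose coding members make stress ligands of NKG2D, an activating receptor of natural killer and T cells.

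All positions are on GRCm38. Map7 (ENSMUSG00000019996, protein-coding, plus strand) spans chr10:20148471-20281590. The gap to the next member was 1.905 Mb, and the other 4 lay within 0.159 Mb of each other. Gm26740 (ENSMUSG00000097705, minus strand) spans chr10:22187013-22302835, Gm26581 (ENSMUSG00000097108, plus strand) spans chr10:22212653-22217241, Hmgb1-ps8 (ENSMUSG00000097295, minus strand) spans chr10:22262742-22263367 and Gm5421 (ENSMUSG00000097245, plus strand) spans chr10:22343439-22345792. Gm26581 and Hmgb1-ps8 lie in the introns of Gm26740 and share no exon base with it. All 4 lie within the annotated span of Raet1e, Gm26581 and Hmgb1-ps8 also lie within that of H60b, and Gm26740 overlaps H60b, again with no shared exon base. The exons of Map7 overlap those of the antisense gene Gm48249 by 332 bases. The sources used here do not give the strand setting of the counting, so reads of overlapping genes on opposite strands may not have been separated. From the end of each member to the start of Zbtb24 (chr10:41450383-41465574) the distance ranged from 19.1 Mb for Gm5421 to 21.2 Mb for Map7.

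Close copies elsewhere in the genome bear on which reads could be counted for a member, and they are shown for Hmgb1-ps8 and Gm26581. To show how close they are, each of these 2 members is set beside its source or copy over the 100 bases, aligned without gaps, that hold the most differences, with differing bases in capitals and, for Hmgb1, within the coding sequence. The sequences are GENCODE transcripts. Hmgb1-ps8 matched the transcript of Hmgb1, a chromatin protein gene on chromosome 5, at 95.8% of 623 aligned bases. Hmgb1 is 1 of 67 other genes that matched Hmgb1-ps8 at 90% identity or more, over at least 90% of its length. The stretch of Hmgb1-ps8 (chr10:22262748-22262847, minus strand) is set against that of Hmgb1 (chr5:149048767-149048866, minus strand), and they differ at 7 bases:
Hmgb1-ps8: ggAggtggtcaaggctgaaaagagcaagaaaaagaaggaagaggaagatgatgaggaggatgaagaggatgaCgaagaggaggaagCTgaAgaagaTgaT
Hmgb1: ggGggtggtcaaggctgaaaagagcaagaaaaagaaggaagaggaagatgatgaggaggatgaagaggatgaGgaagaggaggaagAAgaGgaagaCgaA

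Gm26581 had a nearly identical copy further along the cluster, the non-coding gene Gm10825 (chr10:22402883-22407470, plus strand), with 99.576% identity and 16 mismatches over 4480 aligned bases. The stretch of Gm26581 (chr10:22214043-22214142, plus strand) differs from that of Gm10825 (chr10:22404272-22404371, plus strand) at 4 bases:
Gm26581: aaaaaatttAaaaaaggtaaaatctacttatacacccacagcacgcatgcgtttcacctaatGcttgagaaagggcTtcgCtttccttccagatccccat
Gm10825: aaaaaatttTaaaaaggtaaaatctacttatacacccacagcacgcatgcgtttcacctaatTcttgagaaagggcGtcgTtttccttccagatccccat

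Of all stretches of 50 bases in the longest transcript of Gm26581, 14.4% occurred in no GENCODE transcript of another gene, against 78.2% for Hmgb1-ps8, 83.6% for Gm5421, 95.4% for Map7 and 100.0% for Gm26740. At 100 bases the shares were 27.2% for Gm26581 and 97.1 to 100.0% for the other 4. Most short stretches of Gm26581 thus do not separate it from Gm10825 or another gene, and its counts are uncertain to that extent. Gm10825 itself had 1 to 5 counts in every library. No read length is given in the sources used.

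RefSeq (GRCm38.p6) had a promoter window, from 250 bases before to 50 after a start site, for 2 of the 5 members, Map7 and Gm26740. Both windows are shown because these 2 members are the ones with more than 6 counts in control libraries, with every CpG in capitals. The window of Map7 (chr10:20148670-20148969, plus strand) held 55 CpGs, against a median of 7 over all 32851 windows:
Map7: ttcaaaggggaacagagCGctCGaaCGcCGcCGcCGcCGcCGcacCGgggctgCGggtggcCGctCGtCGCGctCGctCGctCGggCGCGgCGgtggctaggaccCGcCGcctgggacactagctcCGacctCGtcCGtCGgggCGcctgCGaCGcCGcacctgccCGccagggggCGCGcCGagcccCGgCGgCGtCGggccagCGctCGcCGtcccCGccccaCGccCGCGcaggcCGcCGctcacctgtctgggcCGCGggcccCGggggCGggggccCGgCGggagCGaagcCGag

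Gm26740 had 3 windows, and the one shown (chr10:22302789-22303088, minus strand) held 1 CpG:
Gm26740: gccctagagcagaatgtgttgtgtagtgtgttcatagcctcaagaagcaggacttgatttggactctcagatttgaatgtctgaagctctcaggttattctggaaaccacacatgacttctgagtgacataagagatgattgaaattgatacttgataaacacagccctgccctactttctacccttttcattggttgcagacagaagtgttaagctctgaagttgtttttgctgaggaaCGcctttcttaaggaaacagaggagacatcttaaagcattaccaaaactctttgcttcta

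The motif CAGGACCT, reported for ZBTB24, was searched on both strands and was absent from the Map7 window and from all 3 Gm26740 windows. It occurred in 653 windows, which is 1.99% of them. No methylation or binding was measured in this study, so these letters are a description of the sequence only.

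Map7 was higher in CKO than in control libraries of both cell types. Levels are given in CPM, read counts scaled to the library's TMM-adjusted total. FO libraries had 3.71, 3.51 and 4.32 CPM of Map7 in Control and 14.6, 13.0 and 12.1 CPM in CKO mice. MZ libraries had 10.9, 9.09 and 9.87 CPM in Control and 25.4, 20.1 and 17.5 CPM in CKO mice. No 2 groups overlapped, and the order from low to high was FO Control, then MZ Control, then FO CKO, then MZ CKO. Within both cell types, 111 of 18546 tested genes (0.599%) had every CKO library above every control library. The members were chosen on the genotype difference, so nothing is read from their separation. The CKO to control log2 fold change was 1.78 in FO and 1.08 in MZ B cells, which is 3.44-fold and 2.11-fold.

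Gm26740 was transcribed in all libraries. Its FO levels were 14.2, 14.3 and 12.2 CPM in Control and 28.4, 27.5 and 30.7 CPM in CKO mice. Its MZ levels were 12.9, 10.96 and 10.3 CPM in Control and 23.1, 22.1 and 29.2 CPM in CKO mice. All 6 CKO libraries lay above all 6 control libraries, while FO and MZ libraries of the same genotype overlapped. Gm26740 too was chosen on this genotype difference, and the share given for Map7 was counted within each cell type. The log2 fold change was 1.09 in FO and 1.12 in MZ B cells.

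The other 3 members were at or near 0 in control libraries of both cell types. For Hmgb1-ps8, Control libraries held 6, 1 and 0 counts (FO) and 5, 2 and 1 counts (MZ), and CKO libraries held 730, 515 and 565 counts (FO) and 453, 445 and 647 counts (MZ). For Gm5421, Control libraries held 2, 1 and 1 counts (FO) and 1, 3 and 2 counts (MZ), and CKO libraries held 160, 118 and 129 counts (FO) and 159, 131 and 187 counts (MZ). For Gm26581, Control libraries held 2, 0 and 0 counts in FO and 0 in every MZ library, and CKO libraries 134, 100 and 121 in FO and 79, 89 and 125 in MZ samples. For these 3, each CKO library thus held at least 79 counts and no control library held more than 6. The ratio of summed counts, scaled by library size, was 259 (95% exact interval 126 to 646) in FO and 197 (99.6 to 456) in MZ B cells for Hmgb1-ps8. For Gm5421 it was 102 (39.6 to 376) in FO and 81.0 (36.9 to 222) in MZ B cells. For Gm26581 it was 178 (48.9 to 1476) in FO B cells, from 2 control counts, and at least 99.5-fold higher in MZ B cells, taking a floor of 3 counts over the group. These intervals cover counting error only, from reads pooled over the 3 libraries of a group. They leave out the spread between mice and the choice of the members on these same values. They are therefore not a test of the genotype difference.

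**Figure D1:**
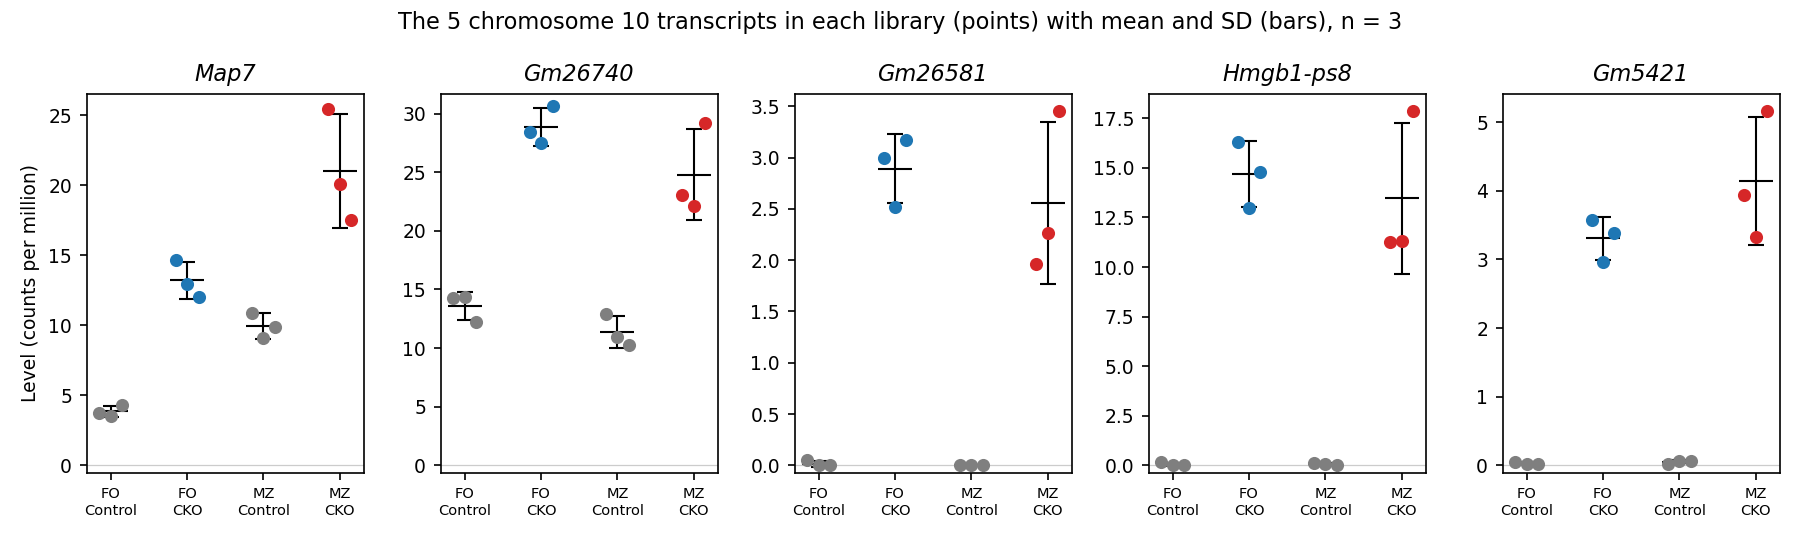
Level of each of the 5 transcripts in CPM (y axis, linear, from 0) in the 4 groups (x axis), with 1 point per library and bars for mean and SD of 3 libraries. Map7 and Gm26740 are present in control libraries and higher in CKO libraries, whereas Gm26581, Hmgb1-ps8 and Gm5421 have at most 6 counts in any control library.

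Per kilobase of exon, the members stood in another order. In FO CKO libraries Hmgb1-ps8 was highest at 23.5 ± 2.67 RPKM (mean ± SD, n = 3 here and below), followed by Gm26740 at 16.7 ± 0.960 RPKM. Map7 had 1.67 ± 0.165, Gm5421 1.41 ± 0.131 and Gm26581 0.646 ± 0.0754 RPKM. In MZ CKO libraries Hmgb1-ps8 had 21.5 ± 6.07 and Gm26740 14.4 ± 2.23 RPKM, and each of the 3 libraries held more Hmgb1-ps8 than Gm26740, with no overlap. Map7 stood at 2.65 ± 0.510, Gm5421 at 1.76 ± 0.395 and Gm26581 at 0.571 ± 0.176 RPKM. Dividing by the longest transcript instead of all exon bases moved Map7 in FO CKO libraries to 3.11 RPKM and kept the order of the means. By that length Gm26740 had a mean of 16.19 RPKM in MZ CKO libraries, and its values there overlapped those of Hmgb1-ps8.

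In counts not scaled by length, the pseudogene Hmgb1-ps8 was far below its source gene. Per kilobase of exon the gap was smaller. Hmgb1 had 41.0 RPKM in FO CKO and 35.3 RPKM in MZ CKO libraries, against 23.5 and 21.5 RPKM for Hmgb1-ps8. By its longest transcript, Hmgb1 had 72.57 and 62.45 RPKM. Hmgb1-ps8 counts were 5.96 to 8.30% of Hmgb1 counts in FO CKO and 5.91 to 11.2% in MZ CKO libraries, against at most 0.0713% and 0.0852% in the matching controls. Hmgb1 itself did not pass between genotypes, with a log2 fold change of -0.06 (SE 0.07, adjusted p = 0.9995) in FO and 0.10 (SE 0.10, adjusted p = 1) in MZ B cells.

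By edgeR's quasi-likelihood test, 10 of 17777 genes (0.0563%) were higher in CKO in FO B cells at a Benjamini-Hochberg adjusted p under 0.05, and 10 of 17658 (0.0566%) in MZ B cells. The 5 members made up 5 of the 10 in each cell type. Since that contrast chose them, nothing is read from this share. With the replicate number as a block, which joins libraries of different mouse numbers across genotypes, 18 genes were higher in FO and 40 in MZ B cells.

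The other genes of the cluster around the 4 distal members lay on both sides of no difference, and none passed the test. Of 10 genes tested between Gm2539 and Gm16531 that are not members, 5 had every CKO library below every control library in both cell types and 1 had every CKO library above. Over all 18546 genes tested in the 12 libraries, these shares were 0.545% for below and 0.599% for above. By edgeR's quasi-likelihood test 0 passed by genotype after adjustment, with 7 of 8 tested in FO and 6 of 9 tested in MZ B cells at an unadjusted p under 0.05. Over all genes these were 717 of 17777 in FO and 512 of 17658 in MZ B cells. Their median log2 fold change was -0.45 in FO and -0.37 in MZ B cells, against 0.01 and 0.00 over all genes tested. DESeq2 called 1 gene in each cell type.

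H60b (chr10:22158586-22288849, plus strand), which encodes an NKG2D ligand, was among the genes below. FO libraries held 12.1, 12.7 and 12.7 CPM in Control and 9.98, 7.75 and 10.1 CPM in CKO mice, and MZ libraries 15.3, 13.2 and 13.9 CPM in Control and 6.33, 6.31 and 9.22 CPM in CKO mice. The groups did not overlap in either cell type. The log2 fold change was -0.43 (SE 0.13, adjusted p = 0.9995) in FO and -0.96 (SE 0.17, adjusted p = 0.164) in MZ B cells. In MZ B cells H60b passed by DESeq2 (adjusted p = 3.55e-05), with the replicate block (adjusted p = 0.00112) and without MZ CKO replicate 3 (adjusted p = 0.0115). With any other MZ library left out the adjusted p of H60b was 0.29 to 0.766. Between the cell types the H60b genotype difference had a log2 difference of -0.52 (95% interval -0.99 to -0.06, adjusted p = 1).

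The pseudogene Gm2539, at the near end of the cluster (chr10:22074237-22103313), also lay below. FO libraries held 3.31, 3.68 and 3.32 CPM in Control and 1.85, 1.94 and 1.44 CPM in CKO mice, and MZ libraries 2.23, 2.66 and 2.40 CPM in Control and 1.24, 1.15 and 0.939 CPM in CKO mice. No library of 1 genotype reached the other genotype within a cell type. Its log2 fold change was -0.97 (SE 0.19, adjusted p = 0.295) in FO and -1.13 (SE 0.23, adjusted p = 0.283) in MZ B cells, and DESeq2 called it in FO B cells (adjusted p = 0.0368).

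The pseudogene C920009B18Rik, the neighbour of Gm5421, held 40.8 to 46.1 CPM in Control and 35.5 to 38.1 CPM in CKO among FO libraries, without passing. Its log2 fold change was -0.26 (SE 0.07, adjusted p = 0.929) in FO and -0.41 (SE 0.10, adjusted p = 0.879) in MZ B cells. E030030I06Rik had -0.48 (SE 0.11, adjusted p = 0.732) and -0.37 (SE 0.12, adjusted p = 1). Gm19791 had 78 counts summed over the Control and 37 over the CKO libraries in FO B cells. Gm2539 and Gm19791 are named after their values were seen, as are Gm10825 and Cdc40.

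Gm1972, an unprocessed pseudogene between Gm26581 and Hmgb1-ps8 (chr10:22224280-22253819), was the 1 tested gene of the cluster above that is not a member. FO libraries held 2, 4 and 1 counts in Control and 15, 18 and 19 in CKO mice, and MZ libraries 3, 6 and 2 in Control and 15, 18 and 26 in CKO mice. Genotypes did not overlap in either cell type, at low counts, with log2 fold changes of 2.85 (SE 0.51, adjusted p = 0.202) in FO and 2.43 (SE 0.50, adjusted p = 0.291) in MZ B cells. Gm26528, a processed pseudogene inside the Gm26740 span, had 0.04 (SE 0.19) and -0.28 (SE 0.24), with overlapping groups.

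Just beyond Gm5421 lies Raet1d (chr10:22360552-22374139, plus strand), which encodes an NKG2D ligand and is named here after its values were seen. It was below the count filter and was not tested. Raet1d had 0 counts in all 6 control libraries, and CKO libraries held 7, 6 and 7 counts (FO) and 15, 7 and 11 counts (MZ). It was at least 6.69-fold higher in FO and at least 11.2-fold higher in MZ CKO libraries, with the same floor of 3 counts. Its annotated end is the same base as that of Raet1e, which had 19 to 28 summed counts in each group.

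**Figure D2:**
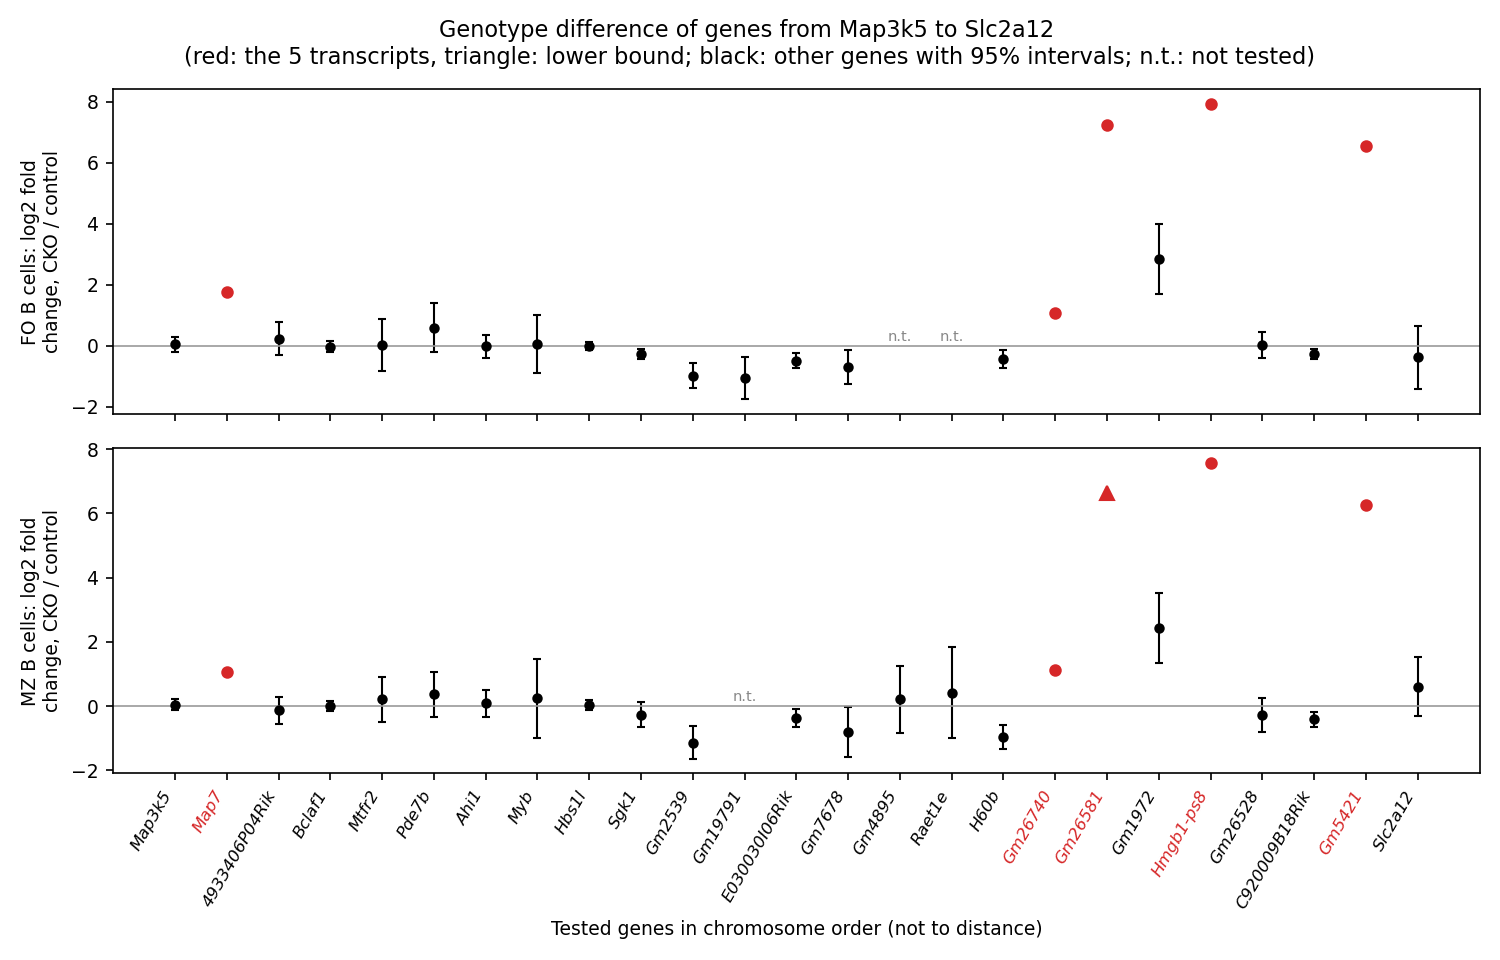
Log2 fold change of CKO against control (y axis) for the tested genes from Map3k5 to Slc2a12 in chromosome order (x axis), in FO (top) and MZ (bottom) B cells. Red points are the 5 transcripts, drawn without intervals because they were chosen on these values, the triangle is a lower bound, and black points are other genes with 95% intervals. Genes from Map3k5 to Sgk1 other than Map7 lie between -0.26 and 0.61, while genes around the 4 distal transcripts reach from -1.13 to 2.85.

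None of the tested genes around Map7 passed by genotype. Its tested neighbours were Map3k5, with log2 fold changes of 0.06 (SE 0.11) in FO and 0.04 (SE 0.08) in MZ B cells, and the non-coding gene 4933406P04Rik, with 0.24 (SE 0.24) and -0.12 (SE 0.19). Bclaf1, the most abundant gene of the span at 252 ± 26.6 CPM in FO Control libraries, had -0.03 (SE 0.08) and 0.00 (SE 0.07). Hbs1l had 0.00 (SE 0.06) and 0.05 (SE 0.07), and the transcription factor gene Myb had 0.06 (SE 0.38) and 0.25 (SE 0.48). Ahi1 had -0.01 (SE 0.17) and 0.09 (SE 0.19). Pde7b, a phosphodiesterase gene named after its values were seen, had the largest values of these genes, 0.61 (SE 0.36, adjusted p = 0.9995) and 0.37 (SE 0.32, adjusted p = 1), with overlapping genotypes. The kinase gene Sgk1 had -0.26 in both, with SE 0.07 in FO and 0.18 in MZ B cells (adjusted p = 0.871 and 1). All 8 tested genes between Map7 and Gm2539 had overlapping genotypes in at least 1 cell type, and their median log2 fold change was 0.02 in FO and 0.07 in MZ B cells. Slc2a12, on the far side of Gm5421, had -0.37 (SE 0.46) and 0.60 (SE 0.42).

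Accounting for the whole span, 56 genes are annotated and 38 are in the count file, of which 33 are not members. Of these 33, 27 had a count and 18 were tested in the 12 libraries. None passed edgeR's quasi-likelihood test by genotype, with 8 of 16 at an unadjusted p under 0.05 in FO and 6 of 17 in MZ B cells, against the 717 of 17777 and 512 of 17658 over all genes. After widening the span by 10 Mb on each side, 0 of 83 other genes passed in FO and 0 of 82 in MZ B cells. In the bin from 20 to 25 Mb, 5 of 29 genes that are not members (17.2%) had an absolute log2 fold change above 0.5 in FO and 5 of 29 in MZ B cells. Over all genes tested, this share was 6.41% in FO and 6.73% in MZ B cells. The bin did not have the highest share on chromosome 10. In FO B cells the bins from 0 to 5 Mb (2 of 11 genes), 70 to 75 Mb (2 of 10) and 130 to 135 Mb (1 of 4) had higher shares. In MZ B cells the bin from 35 to 40 Mb did (3 of 17). These bins held fewer genes, and all other bins of chromosome 10 had lower shares. On the rest of chromosome 10 only Cdc40, a splicing factor gene, passed in these 2 fits, and it was lower in CKO. Its log2 fold change was -0.82 (SE 0.08, adjusted p = 0.003909) in FO and -0.70 (SE 0.10, adjusted p = 0.02479) in MZ B cells. The promoter window of Cdc40 (chr10:40883094-40883393, minus strand) lies before Zbtb24 and holds the motif CAGGACCT. What lowers Cdc40 was not tested.

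**Figure D3:**
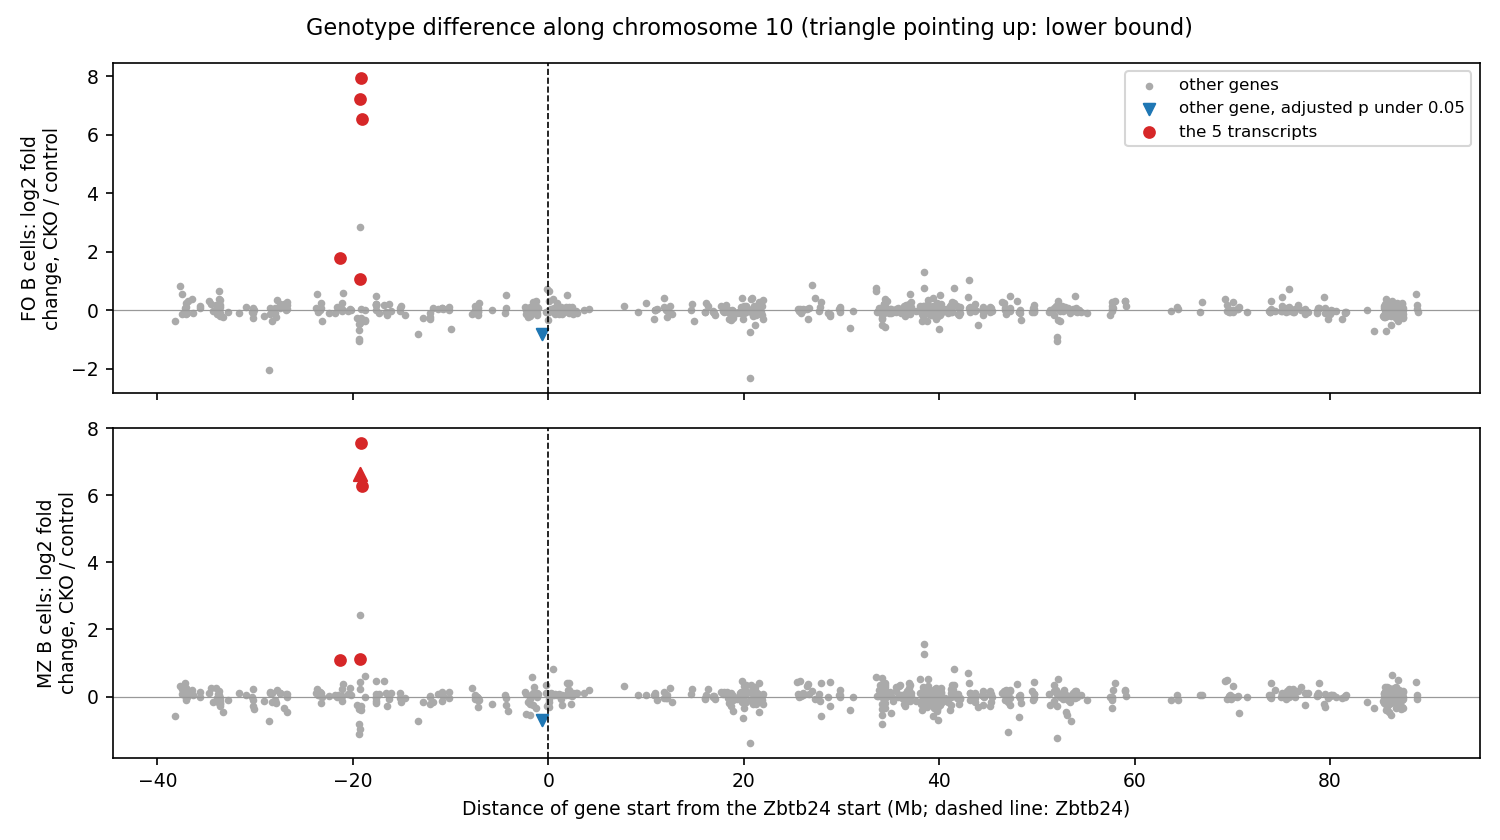
Log2 fold change of CKO against control (y axis) for every tested gene of chromosome 10 against the distance of its start from the start of Zbtb24 in Mb (x axis), in FO (top) and MZ (bottom) B cells. Red points are the 5 transcripts, blue marks another gene that passed (Cdc40), and the upward triangle is a lower bound. The 5 transcripts lie before Zbtb24 and above 0, and no gene between them and Zbtb24 other than Cdc40 passed the test.

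Zbtb24 RNA was still counted in CKO libraries. FO libraries held 62.5, 60.8 and 60.8 CPM in Control and 48.3, 46.9 and 50.02 CPM in CKO mice, and MZ libraries 49.1, 52.9 and 54.4 CPM in Control and 46.4, 41.8 and 41.9 CPM in CKO mice. The genotypes did not overlap, and CKO means stood at 78.9% (FO) and 83.1% (MZ) of the Control means. The log2 fold change was -0.34 (SE 0.06, adjusted p = 0.194) in FO and -0.27 (SE 0.08, adjusted p = 1) in MZ B cells, and DESeq2 called it in FO B cells (adjusted p = 0.00718). The sources used do not say which exons are removed, so a count over the whole gene does not check the deletion itself.

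Whether the members differ between the cell types was tested within each genotype, a contrast the choice of members did not use. Map7 was higher in MZ than in FO B cells in both genotypes. In control mice the log2 difference was 1.37 (SE 0.15, edgeR adjusted p = 3.4e-05), and MZ exceeded FO 2.29 to 2.94-fold within the 3 mouse numbers. In CKO mice it was 0.68 (SE 0.15, adjusted p = 0.0134), with ratios of 1.45 to 1.74. Without FO CKO replicate 3 or MZ CKO replicate 1 the CKO difference no longer passed (adjusted p = 0.0541 and 0.0527). By the same test 4977 of 17830 genes (27.9%) differed in control and 3243 of 17712 (18.3%) in CKO mice. With the mouse number as a block these became 7805 and 6333 genes.

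Gm26740 lay lower in MZ than in FO libraries, without passing in the main fit, which leaves out the pairing by mouse number. The MZ to FO ratio within mouse numbers was 0.765 to 0.909 in control and 0.805 to 0.952 in CKO mice, below 1 in all 6. The log2 difference was -0.25 (SE 0.12, adjusted p = 0.151) in control and -0.21 (SE 0.11, adjusted p = 0.252) in CKO mice. With the mouse number as a block it passed in both, at -0.26 (adjusted p = 0.0187) and -0.22 (adjusted p = 0.038). Without MZ CKO replicate 3 the CKO difference was -0.34 (adjusted p = 0.0479).

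For the 3 members near 0 in controls the cell types could be compared only in CKO mice, because control libraries were below the count filter. None of the 3 passed. Hmgb1-ps8 had a log2 difference of -0.12 (95% interval -0.55 to 0.32, adjusted p = 0.735) and was lower in MZ for 2 of 3 mouse numbers. Gm26581 had -0.17 (95% interval -0.72 to 0.37, adjusted p = 0.689) and was also lower in 2 of 3. Gm5421 had 0.33 (95% interval -0.13 to 0.79, adjusted p = 0.318) and was higher in MZ for 3 of 3 mouse numbers. With 3 libraries a group, the data are compatible with any difference inside these intervals. They come from a fit without the mouse number as a block.

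**Figure D4:**
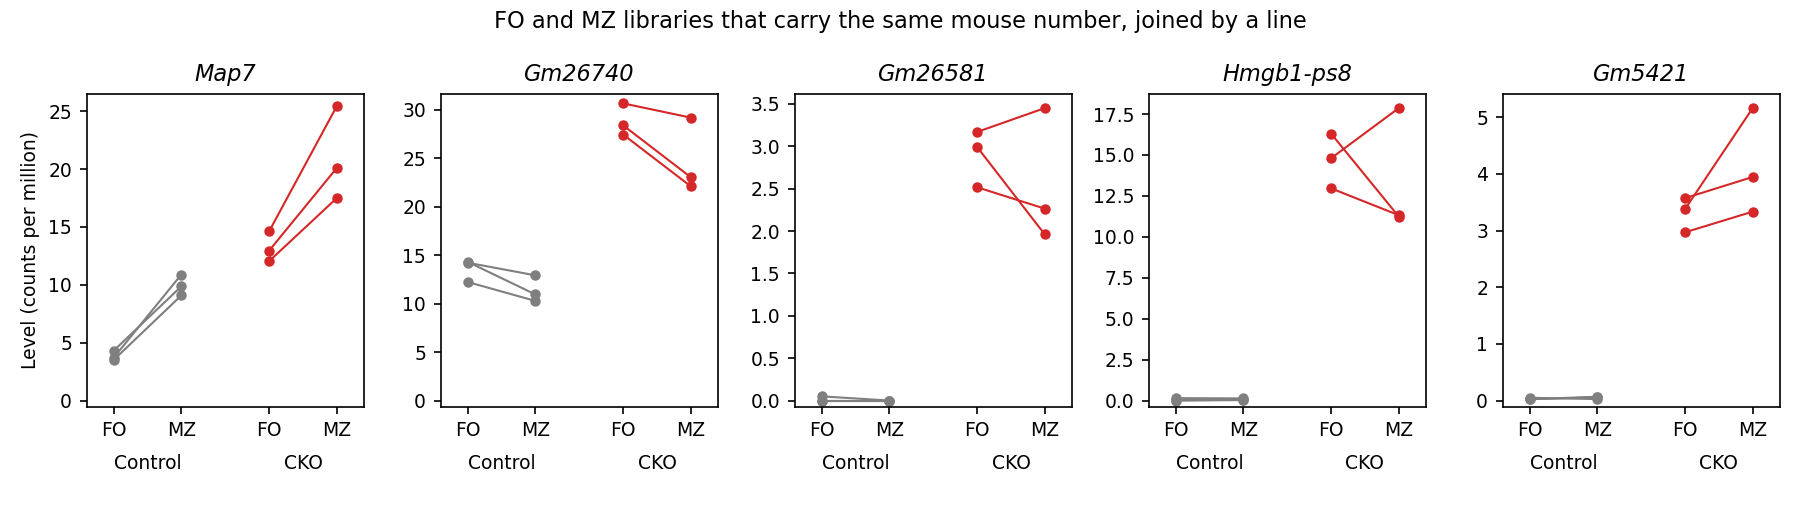
Level of each transcript in CPM (y axis, linear, from 0) in FO and MZ libraries (x axis), with a line joining the 2 libraries of a mouse number, control in grey and CKO in red. Map7 rises from FO to MZ along all 6 lines and Gm26740 falls along all 6, while lines of Gm26581 and Hmgb1-ps8 cross.

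The genotype effect itself was compared between MZ and FO B cells as an interaction over all 12 libraries. No gene of 18546 (0.0%) passed edgeR's quasi-likelihood test, with 238 at an unadjusted p under 0.05, and DESeq2 called 0. With the mouse number as a block 4 genes passed, none of them a member. Map7 had the clearest difference of the 5, a log2 difference of -0.70 (95% interval -1.14 to -0.26, unadjusted p = 0.00406 and adjusted p = 1 by edgeR), so that its CKO to control fold was smaller in MZ than in FO B cells. Under the block it was -0.71 (adjusted p = 0.102). Gm26740 had 0.04 (95% interval -0.33 to 0.40, adjusted p = 1). The values of Hmgb1-ps8 (-0.37), Gm5421 (-0.27) and Gm26581 (2.45) rest on control counts of 0 to 6 per library and changed sign when a single control library was left out. These runs were the one without FO Control replicate 3 (0.20) or MZ Control replicate 1 (0.44) for Hmgb1-ps8, without MZ Control replicate 2 (0.03) for Gm5421 and without FO Control replicate 1 (-0.18) for Gm26581.

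No other gene of the lists built around Map7 and Hmgb1-ps8 passed by genotype. No such list was made for Gm26740, Gm26581 or Gm5421. Among 9 tested genes of the MAP7 family and kinesin-1 that are not members, 0 passed edgeR's test or DESeq2 between genotypes in FO or MZ B cells, with medians of -0.02 and 0.04 on the log2 scale and 0 of 9 at an unadjusted p under 0.05. Kif5a, a kinesin-1 heavy chain, had -0.72 (SE 0.33, unadjusted p = 0.0533) in FO B cells. Of other microtubule-binding proteins, 0 of 15 passed in FO and 0 of 14 in MZ B cells, with medians of -0.04 and 0.06, 1 in each at an unadjusted p under 0.05, and 0 called by DESeq2. That gene was Map2, with 1.13 (SE 0.32, unadjusted p = 0.0059) and 1.18 (SE 0.32, unadjusted p = 0.00388). Of the 12 HMGB genes and other Hmgb1 pseudogenes in the file, 5 were tested and 0 passed in either cell type, with 0 at an unadjusted p under 0.05, 0 called by DESeq2 and log2 fold changes between -0.14 and 0.22.

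Between MZ and FO B cells, where Map7 differed, Kif5a rose too, with a log2 difference of 0.92 (SE 0.28, adjusted p = 0.0284) in control and 1.26 (SE 0.32, adjusted p = 0.023) in CKO mice. DESeq2 called Kif5a in neither (adjusted p = 0.122 and 0.079). By edgeR Kif5a was the 1 of 9 genes of its list that passed in each genotype, against 27.9% of all genes in control and 18.3% in CKO mice. DESeq2 called 1 other gene of the list in control and 0 in CKO mice. Kif5a levels were low, with means of 0.472 CPM in FO and 0.895 CPM in MZ Control libraries. Kif5b, of the same list, had lower means in MZ without passing edgeR's test. It had 216.9 CPM (FO) and 185.8 CPM (MZ) in Control, and 203.5 and 182.3 CPM in CKO libraries. Of 14 other microtubule-binding proteins, 5 passed in each genotype. The microtubule plus-end proteins Clasp1 and Mapre2 were lower in MZ in both genotypes (Clasp1 -0.43, SE 0.06, adjusted p = 0.000345 in control), and Clasp2 and Mapre3 were higher in both (Mapre3 1.10, SE 0.36, adjusted p = 0.0446 in control). Hmgb1 was lower in MZ in control mice (-0.38, SE 0.09, adjusted p = 0.006142).

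The libraries held 36340116 to 44629250 counts in genes. The labelled cell types matched their markers: all 4 FO markers were lower and all 5 MZ markers higher in MZ than in FO libraries in both genotypes, and B cell markers summed to 4537 to 6193 CPM. Markers of other cells were low but present. Neutrophil markers summed to 43.7 to 102 CPM (Control) and 73.9 to 170 CPM (CKO) among FO libraries and to 33.0 to 74.96 and 38.7 to 93.3 CPM among MZ libraries. T cell markers summed to 128 to 146 CPM (Control) and 88.2 to 126 CPM (CKO) among FO libraries, without overlap, and to 58.7 to 97.2 and 52.4 to 83.96 CPM among MZ libraries. Over all libraries, macrophage and monocyte markers to 127 to 422, NK cell markers to 8.49 to 29.1 and erythroid and platelet markers to 3.34 to 179 CPM. Their part in the values of the members was not tested. In bulk RNA, fewer cells that transcribe a gene and less RNA per cell cannot be told apart. Whether the 3 libraries of a group come from separate experiments beyond separate mice is not stated, so p-values measure the spread between these libraries.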

How the data were processed

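The authors deposited whole-number read counts per Ensembl gene, without normalization, and 5 entries for reads that name no gene, which held 43.2 to 50.4% of listed reads and were left out. The submitters' processing notes name TopHat, HTSeq and DESeq2, on GRCm38 (mm10), without versions. Reads that did not align uniquely were 19.6 to 28.7%, which can lower the counts of genes with copies. Symbols and positions came from GENCODE M21, with which 45143 of 46078 genes matched.

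The test of the counts was that of edgeR 4.0.16, run in R 4.3.3 (filterByExpr, TMM, robust quasi-likelihood F test, two-sided, Benjamini-Hochberg over all genes tested, threshold 0.05) and with DESeq2 1.42.0 as an alternative. SEs are approximate and were derived from the size of the log2 fold change and its F statistic. CPM and RPKM were computed here. Transcripts were aligned with blastn 2.17.0, and the closest match of 1 member is not reported here. Same-numbered FO libraries of both genotypes deviated together (r 0.10 to 0.36), as did FO and MZ libraries of a mouse number (0.43 to 0.65). For MZ by genotype, r was -0.07, 0.36 and 0.37. Across genotypes a shared replicate number joins different mouse numbers, so these were not taken as pairs. For MZ against FO and for the interaction, the block is the mouse number, which joins libraries that appear to share a mouse. The main fits leave this pairing out. Both blocks are given only as alternatives.

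The members and the gene lists were chosen with earlier results of these data known. Genes named are the members, Zbtb24, tested neighbours, the 6 most abundant tested coding genes of the span, the 3 genes most alike to each member, and list genes that passed (up to 4) or had the smallest p (up to 2). Alternatives were RLE scaling, no count filter, no robust estimation, the replicate block, DESeq2 and leaving out each library.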

Additional observations from a re-analysis of the deposited data

How the results depend on the processing

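The log2 fold change of each member by genotype kept its sign in every alternative run. This was fixed in advance, because the members were chosen on that difference and their genotypes did not overlap within a cell type. Nothing is read from it. Counts of genes called by genotype depended on the test. In FO B cells 16 genes were called, against 140 without the filter on low counts, 42 with DESeq2, 25 with the replicate block and 11 to 31 when 1 library was left out (31 without FO CKO replicate 3). In MZ B cells 14 were called, against 95 without the filter, 7 without robust estimation, 34 with DESeq2, 57 with the replicate block and 5 to 34 with 1 library left out (7, 5 and 9 without MZ Control replicates 1, 2 and 3, and 34 without MZ CKO replicate 3). For MZ against FO, leaving out 1 library gave 3585 to 5012 calls in control and 1898 (without FO CKO replicate 1) to 2884 in CKO mice, and the mouse block gave 7805 and 6333. The interaction gave 0 calls except with the mouse block (4). Among genes of the span that are not members, calls rose from 0 in FO B cells to 3 without the filter (Gm1972, E030030I06Rik and Gm2539) and 1 with DESeq2, and stayed at 0 with 1 library left out. In MZ B cells they rose to 4 without the filter, 2 with the replicate block (H60b and Gm1972), 1 with DESeq2 and 0 to 1 with 1 library left out. The cause of these differences was not tested. Genes near 0 in controls numbered 4 at a threshold of 20 counts (3 of them members), 3 at 10 (2 of them members) and 3 at 40 (all members). With 1 library left out, values near 0, or resting on few control counts, changed sign. The interaction of Gm26740 ranged from -0.10 to 0.14 (-0.03 without MZ Control replicate 3), of Gm26581 from -0.18 to 2.97, of Hmgb1-ps8 from -2.34 to 0.44 and of Gm5421 from -0.65 to 0.0306. By genotype in FO B cells, Map3k5 ranged from -0.0484 to 0.15, Bclaf1 from -0.0927 to 0.0611, Ahi1 from -0.16 to 0.14, Hbs1l from -0.0065 to 0.0224, Gm26528 from -0.0443 to 0.0949 and Myb from -0.42 to 0.27 (-0.0223 with the replicate block). In MZ B cells, Map3k5 ranged from -0.0161 to 0.0866, Bclaf1 from -0.0329 to 0.0289, Ahi1 from -0.0761 to 0.34, Myb from -0.24 to 0.58 and 4933406P04Rik from -0.22 to 0.0065. Depth limits the 3 near-absent members, whose folds rest on at most 8 summed control counts a group.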

Other observations

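A search of the whole count file for genes near 0 in one genotype gave few others like the 3 near-absent members. With at most 20 counts summed over the 6 control libraries and at least 20 in each CKO library, 4 genes remained: Gm26581, Gm5421, Hmgb1-ps8 and Sva. The reverse pattern, near 0 in CKO, was found for 0 genes. Since 3 of the 4 genes are members, chosen for higher counts in CKO, nothing is read from 4 against 0. The search adds only Sva. Sva, on chromosome 6 and encoding a seminal vesicle protein, had 0 counts in all control libraries, 67, 33 and 54 in FO CKO and 60, 52 and 52 in MZ CKO libraries, which is at least 51.5-fold and 55.7-fold higher. It is not on the chromosome of Zbtb24.

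The genes whose levels over the 12 libraries were most like those of each member are a description, since the libraries share mice, genotype and cell type. Among 18545 other genes, Gm26581 was closest to Hmgb1-ps8 (Pearson r of log2 CPM 0.998), Gm5421 (0.991) and Sva (0.983). Hmgb1-ps8 was closest to Gm26581, Gm5421 (0.995) and Sva (0.987), and Gm5421 to Hmgb1-ps8, Sva (0.992) and Gm26581. Gm26740 was closest to Gm26581 (0.972), Hmgb1-ps8 (0.966) and Gm5421 (0.947). These values hold the genotype step that chose the members, and within a genotype (6 libraries) likeness was not uniform: r of Gm26740 with Gm5421 was -0.61 in Control and 0.15 in CKO libraries, and with Gm26581 0.50 and 0.89. Map7 and Gm26740 had r of -0.72 and -0.81. Over all 12 libraries Map7 was closest to no other member but to Hepacam2 on chromosome 6 (0.932), Gmds (0.927) and Casp4 (0.926). Hepacam2 was also higher in CKO, with log2 fold changes of 0.78 (SE 0.10, adjusted p = 0.02864) in FO and 0.89 (SE 0.12, adjusted p = 0.02459) in MZ B cells by edgeR, and higher in MZ than in FO B cells in CKO mice (0.41, SE 0.12, adjusted p = 0.0472). Its Control means were 12.37 CPM in FO and 15.16 CPM in MZ libraries. Because Hepacam2 was picked for its likeness to Map7, differences in the same directions are part of that choice. Gmds and Casp4, picked the same way, did not pass by genotype.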
